A study of Mus musculus with 6 samples.

Results

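The genes described here are 10 genes of major histocompatibility complex (MHC) class I antigen presentation in whole brain, taken by gene symbol from the 37310 genes of the count table. They are 5 class I heavy chain genes (*H2-K1*, *H2-D1*, *H2-Q4*, *H2-Q6* and *H2-T23*), the light chain gene *B2m*, the peptide transporter genes *Tap1* and *Tap2*, the loading factor gene *Tapbp*, and *Nlrc5*, which encodes an activator of class I transcription. They were chosen by symbol, with earlier results of these data known. RNA sequencing was performed on whole brain from 12 week old male C57BL/6 mice, with 3 mice as biological replicates in each of 2 genotypes. The *Adar1* E861A mice carried on both alleles a missense change that leaves the ADAR1 protein unable to edit RNA, whereas the *Adar1* WT mice had 2 wild-type alleles. Both genotypes, controls included, were knocked out for *Ifih1*, which encodes MDA5, the cytosolic sensor of double-stranded RNA. The comparison is therefore between *Adar1* genotypes in brains without MDA5, and no *Ifih1* wild-type brain was part of it. Whole brain is a mixture of cell types, so fewer cells of a type and less RNA per cell cannot be told apart in any value given here.

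A class I molecule is a heavy chain bound to beta-2 microglobulin, the product of *B2m*, and it shows peptides from inside the cell to CD8 T cells and natural killer cells. Peptides made in the cytosol are carried into the endoplasmic reticulum by the TAP1 and TAP2 transporter and are loaded with the help of tapasin, the product of *Tapbp*. Interferons raise transcription of these genes in part through interferon regulatory factors (IRFs), and NLRC5 acts at class I promoters through a conserved upstream module; in resting brain, class I levels are known to be low, with endothelium and microglia among the cells that carry them.

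Promoter sequences of 6 of the genes are shown because letters that IRFs recognise can be read in each of them. *H2-T23* holds such letters like its called relatives. Each runs 5′ to 3′ on the strand of the gene, from 250 bases before to 50 bases after the gene start (RefSeq, build GRCm38.p6). Capitals mark matches on either strand to AANNGAAA, the core that IRFs recognise, and to GGGGANNCCC, a kappa B element. They do not mark the module through which NLRC5 acts. The windows are @*H2-K1*@ (minus strand), @*H2-D1*@, @*H2-Q4*@, @*H2-Q6*@ and @*B2m*@ (plus strand), and @*H2-T23*@ (minus strand).
H2-K1: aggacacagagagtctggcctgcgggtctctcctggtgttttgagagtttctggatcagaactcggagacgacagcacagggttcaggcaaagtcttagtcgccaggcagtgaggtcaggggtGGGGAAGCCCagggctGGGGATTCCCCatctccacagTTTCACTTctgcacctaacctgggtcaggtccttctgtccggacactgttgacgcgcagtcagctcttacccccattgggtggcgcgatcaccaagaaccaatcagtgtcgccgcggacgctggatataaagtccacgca
H2-D1: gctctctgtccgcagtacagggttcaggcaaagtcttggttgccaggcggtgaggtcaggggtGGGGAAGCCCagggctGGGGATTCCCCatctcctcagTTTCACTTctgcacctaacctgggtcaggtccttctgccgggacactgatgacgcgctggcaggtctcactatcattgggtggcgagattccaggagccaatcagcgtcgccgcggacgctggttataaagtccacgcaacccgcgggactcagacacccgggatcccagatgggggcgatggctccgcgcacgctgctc
H2-Q4: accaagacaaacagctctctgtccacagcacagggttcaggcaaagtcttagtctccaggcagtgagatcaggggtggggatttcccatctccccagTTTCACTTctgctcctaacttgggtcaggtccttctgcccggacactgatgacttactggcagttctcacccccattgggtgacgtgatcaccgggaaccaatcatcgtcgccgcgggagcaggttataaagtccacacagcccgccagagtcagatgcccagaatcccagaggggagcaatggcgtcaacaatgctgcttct
H2-Q6: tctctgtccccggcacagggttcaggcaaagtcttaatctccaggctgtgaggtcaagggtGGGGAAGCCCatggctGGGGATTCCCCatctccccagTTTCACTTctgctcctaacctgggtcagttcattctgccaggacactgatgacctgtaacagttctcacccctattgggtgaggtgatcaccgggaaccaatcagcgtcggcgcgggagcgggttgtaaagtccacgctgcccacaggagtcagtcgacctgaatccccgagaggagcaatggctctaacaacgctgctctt
H2-T23: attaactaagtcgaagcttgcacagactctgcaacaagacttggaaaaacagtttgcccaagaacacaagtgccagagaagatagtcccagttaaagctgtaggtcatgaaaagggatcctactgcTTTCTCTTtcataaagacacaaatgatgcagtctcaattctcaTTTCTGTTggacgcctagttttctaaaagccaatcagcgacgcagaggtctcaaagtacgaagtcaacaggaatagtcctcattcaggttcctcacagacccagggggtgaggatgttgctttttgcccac
B2m: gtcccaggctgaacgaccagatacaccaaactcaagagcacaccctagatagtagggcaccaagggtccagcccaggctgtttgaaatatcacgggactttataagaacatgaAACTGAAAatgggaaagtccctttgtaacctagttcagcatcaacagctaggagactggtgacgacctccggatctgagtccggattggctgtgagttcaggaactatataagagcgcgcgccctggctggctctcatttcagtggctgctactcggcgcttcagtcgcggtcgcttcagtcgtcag

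In these windows the IRF core lay 90 bases before the gene start in *H2-K1*, 150 in *H2-D1*, 153 in *H2-Q4* and 152 in *H2-Q6*, measured to the first base of the match along the gene's strand. In the first, second and last of these genes the outermost kappa B match lay 37 bases further from the start than the IRF core. *B2m* held the IRF core 137 bases before its start. *H2-T23* held it 124 and 81 bases before its start, with no match to the kappa B letters in the window. *H2-Q4* also held no match to the letters GGGGANNCCC. Its window reads ggggatttccc before the IRF core, which the fixed spacing of those letters does not cover. The lack of a match therefore does not show that a kappa B site is absent.

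Of the 10 genes, 8 had a promoter window (*Tap2* and *Nlrc5* had none). The IRF core was present in 6 of the 8, against 23.9% of 32544 promoter windows of the same length. This core was added after the sequences had been seen. The longer interferon response element core, GAAANNGAAA, was present in *B2m* and *H2-T23* alone, against 3.45% of all windows, and it contains or overlaps an IRF core in both. The kappa B element was present in 3 of the 8, against 1.66% of all windows. CCAAT was present in all 8 and in 37.4% of all windows, while TGACG, the ATF/CREB motif, was present in 5 of the 8 and in 20.9% of all windows. The letters TTCNNNGAA, the gamma-activated site, were in none of the 8 windows and in 8.33% of all windows. In *H2-K1*, *H2-D1* and *H2-Q6*, the kappa B stretch nearer the start matched on both strands, in overlapping matches. The outermost kappa B match lay apart from it. Windows of related class I genes share sequence, so these matches are not independent of each other, and each is a match of letters, not a measured binding site.

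**Figure D1:**
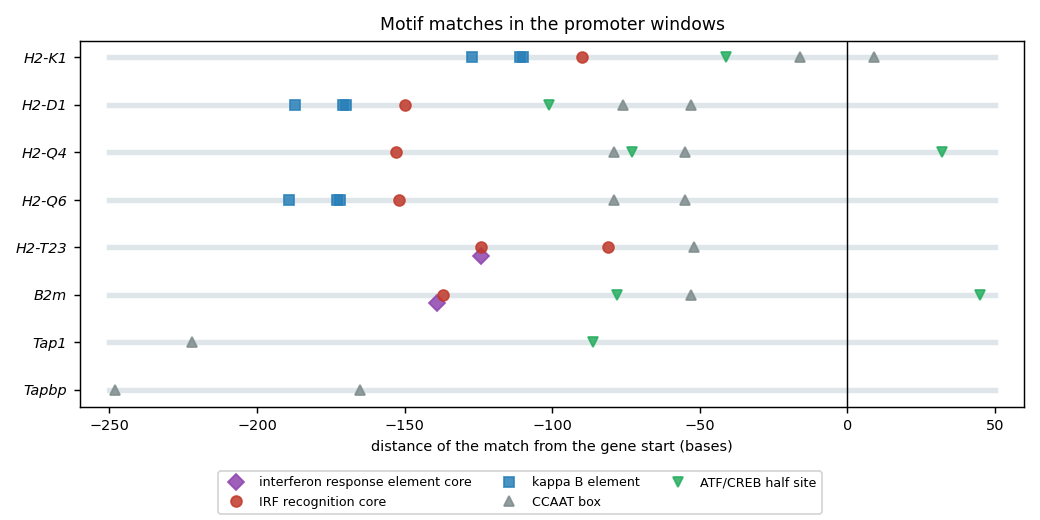
Motif matches in the promoter windows of 8 class I genes, with the distance of the first base of each match from the gene start in bases on the x axis and a row for each gene. Marker shapes and colours name the motif. The IRF core (circles) lies between 81 and 153 bases before the start in all 5 heavy chain genes and *B2m*, while *Tap1* and *Tapbp* have no match to it.

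The libraries held 26853488 to 38076753 gene counts each. Neuron, astrocyte and oligodendrocyte markers were abundant in every library, with summed levels of at least 5683, 4979 and 4319 CPM, counts scaled to a common library total. Of 13649 genes tested, 69 were called (adjusted p under 0.05, edgeR's quasi-likelihood test with Benjamini-Hochberg adjustment), 56 of them higher and 13 lower in *Adar1* E861A; the share called in either direction was 0.506%. The transcript of the targeted gene, listed as *Adar*, was present at 161 ± 8.98 CPM in *Adar1* E861A and 150 ± 29.9 CPM in *Adar1* WT (SD, n = 3), and the mutated base cannot be seen in gene counts. *Ifih1* had 38 to 56 counts in *Adar1* E861A and 41 to 48 in *Adar1* WT; which part of it was deleted is not given in the sources used here, so these counts do not check the knockout. The library labelled *Adar1* E861A replicate 1 stood apart, with 8416 counts of *Gh* and 3274 of *Prl*, both pituitary hormones, while the other 5 libraries held at most 47 and 12. *Adar1* E861A replicate 3 had the most *S100a8* and *S100a9*, genes of neutrophils and monocytes, with 94 and 111 counts against at most 29 and 39 elsewhere.

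In *Adar1* E861A brain the heavy chain genes *H2-K1*, *H2-D1* and *H2-Q4*, the light chain gene and the activator *Nlrc5* rose, by 0.37 to 1.65 on the log2 scale. The estimates for the transporter subunit *Tap2* and the loading factor *Tapbp* lay within 0.08 of 0. The other transporter subunit, *Tap1*, had an estimate of 0.51 ± 0.19 (SE, filterByExpr filter), and the heavy chain gene *H2-T23* of 0.21 ± 0.10. Neither was called. In the test, 5 of the 10 genes were called, each of them higher in *Adar1* E861A: *H2-K1*, *H2-D1*, *H2-Q4*, *B2m* and *Nlrc5*. The share of all tested genes called higher was 0.41%. Another 3 (*H2-T23*, *Tap2* and *Tapbp*) were tested and not called, and *H2-Q6* and *Tap1* did not reach 2 CPM in 3 of 3 libraries of either genotype and were outside this test. *H2-Q4* and *Nlrc5* passed that filter only through the *Adar1* E861A libraries, so that a passing value already required a difference. With edgeR's filterByExpr filter, which keeps all 10 genes among 19366, *H2-Q6* was called as well, to 6 of 10, where 0.449% of the genes tested were called higher.

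**Figure D2:**
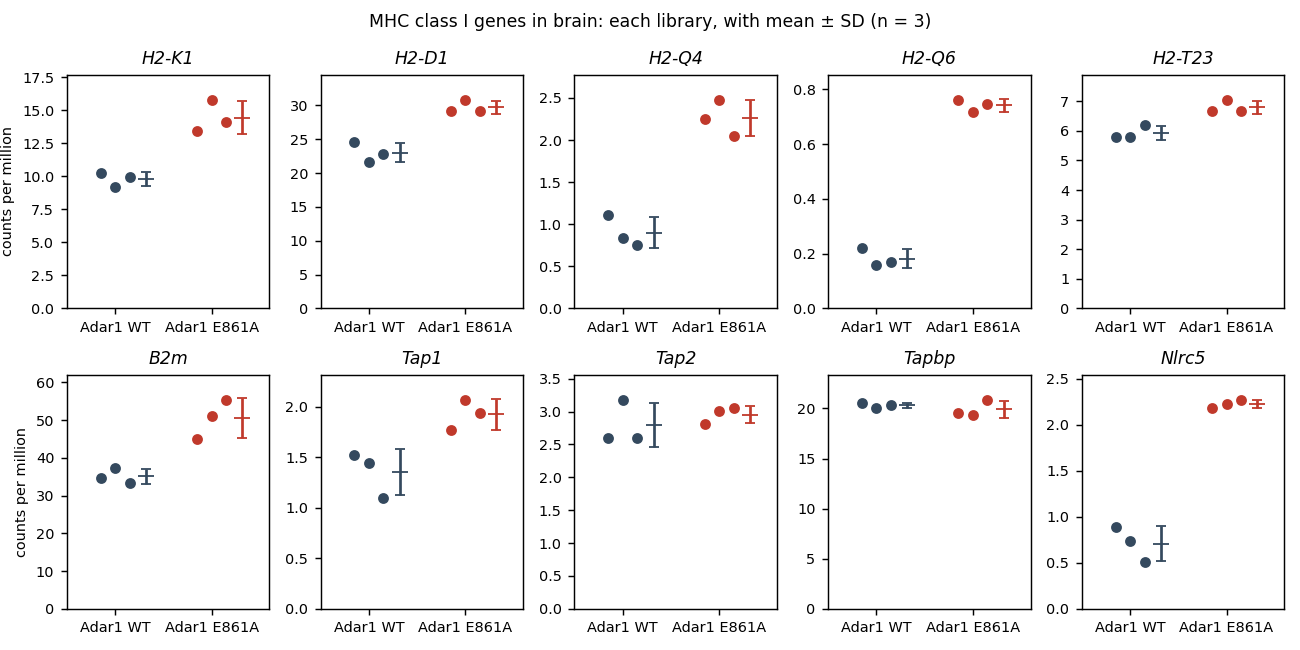
Level of each of the 10 genes in CPM (y axis, from 0, a scale for each gene) in the 3 *Adar1* WT and 3 *Adar1* E861A libraries, with each point a library and each bar the mean ± SD. The *Adar1* E861A points lie above all *Adar1* WT points for 8 genes and overlap them for *Tap2* and *Tapbp*.

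The classical heavy chain genes *H2-K1* and *H2-D1* encode the molecules that present peptide to CD8 T cells. *H2-K1* (ENSMUSG00000061232; NCBIM37 chr17:34132962-34137278, minus strand) held 387, 574 and 380 counts in replicates 1 to 3 of *Adar1* E861A, against 372, 350 and 355 in those of *Adar1* WT, or 14.5 ± 1.24 CPM against 9.81 ± 0.56 CPM (SD, n = 3). In CPM, all 3 *Adar1* E861A libraries lay above the 3 *Adar1* WT libraries. Its log2 fold change (*Adar1* E861A minus *Adar1* WT) was 0.57 ± 0.09 (SE), with an adjusted p of 0.00462 by edgeR.

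*H2-D1* (ENSMUSG00000073411; chr17:35399675-35404444, plus strand) was present at 29.1, 30.8 and 29.1 CPM in *Adar1* E861A and at 24.5, 21.7 and 22.8 CPM in *Adar1* WT. The groups did not overlap. The difference was the smallest of those called, with a log2 fold change of 0.37 ± 0.06 (adjusted p = 0.00854, edgeR). In counts, *H2-K1* was 0.461 to 0.513 times *H2-D1* in the *Adar1* E861A libraries and 0.419 to 0.436 times in the *Adar1* WT libraries, so that these ratios also did not overlap.

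The Qa region genes encode non-classical heavy chains and were near the limit of what the libraries could measure. *H2-Q4* (ENSMUSG00000035929; chr17:35516562-35522235, plus strand), which encodes Qb-1, held 65, 90 and 55 counts in *Adar1* E861A and 40, 32 and 27 in *Adar1* WT, or 2.25, 2.48 and 2.05 CPM against 1.11, 0.84 and 0.756 CPM. Every *Adar1* E861A value was above every *Adar1* WT value. The log2 fold change was 1.33 ± 0.18 (adjusted p = 0.00159, edgeR).

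*H2-Q6* (ENSMUSG00000073409; chr17:35561795-35567000, plus strand) held 22, 26 and 20 counts in *Adar1* E861A and 8, 6 and 6 counts in *Adar1* WT. The mean level was 0.741 ± 0.02 CPM against 0.182 ± 0.03 CPM (SD, n = 3), with no overlap. Its log2 fold change was 2.00 ± 0.32 with filterByExpr (adjusted p = 0.00333, edgeR) and 1.99 ± 0.38 in the fit of all counted genes (adjusted p = 3.89e-05, edgeR). Over all counted genes, the adjusted p was 0.0307 by DESeq2 and 0.00858 by limma-voom. Without *Adar1* WT replicate 3 it was 0.0479 by edgeR. The edgeR fit of all counted genes called 376 genes, against 110 with filterByExpr, so its smaller adjusted p is not read as stronger evidence.

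*H2-T23* (ENSMUSG00000067212; chr17:36166718-36169800, minus strand) encodes Qa-1, the ligand of the NKG2A receptor of natural killer cells. It was present at 6.69, 7.06 and 6.67 CPM in *Adar1* E861A and at 5.78, 5.78 and 6.19 CPM in *Adar1* WT. The groups did not overlap here either, but the log2 fold change of 0.21 ± 0.10 was not called (adjusted p = 0.559, edgeR). The difference between *H2-T23* and the called heavy chains was not itself tested.

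Some heavy chain reads can match the genome at more than their own gene. Of the 75-base stretches of exonic sequence, the read length used, 7.60% had another exact copy in the genome for *H2-K1*, 7.01% for *H2-D1*, 379 of 2226 stretches for *H2-Q4*, 27.3% for *H2-Q6* and 17.1% for *H2-T23*. Of the 454 such stretches of *H2-Q6*, 315 had a copy in *H2-Q7* or another class I gene. Exons of *Gm11131* on the opposite strand covered 18.6% of the exonic length of *H2-Q4*. Levels of *H2-Q4*, *H2-Q6* and *H2-T23* are for these reasons less certain than that of *B2m*, which had no such copy and no overlapping exon.

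*B2m* (ENSMUSG00000060802; chr2:121973422-121978819, plus strand), the light chain gene, is on another chromosome from all the heavy chains. It was present at 45.0, 51.2 and 55.3 CPM in *Adar1* E861A and at 34.7, 37.3 and 33.3 CPM in *Adar1* WT, again without overlap. The log2 fold change was 0.53 ± 0.08 (adjusted p = 0.00357, edgeR), close to that of *H2-K1*. The summed level of the 5 heavy chains went from 37.7 to 41.9 CPM in *Adar1* WT to 52.2 to 56.9 CPM in *Adar1* E861A. Per kilobase of exon, this sum was 0.329 to 0.395 times the level of *B2m* in *Adar1* WT and 0.312 to 0.380 times in *Adar1* E861A, so that the balance of heavy to light chain transcripts overlapped between genotypes.

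*Nlrc5* (ENSMUSG00000074151; chr8:96996663-97051172, plus strand) had the largest difference of the 5 genes called. It held 63, 81 and 61 counts in *Adar1* E861A and 32, 28 and 18 in *Adar1* WT. In CPM, levels were 2.18, 2.23 and 2.27 against 0.885, 0.735 and 0.504, with the *Adar1* WT library of replicate 3 the lowest. The log2 fold change was 1.65 ± 0.20 (adjusted p = 0.000487, edgeR). GENCODE vM1 lists this gene as a lincRNA, although it is known to encode the NLRC5 protein.

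Neither transporter gene was called. *Tap1* (ENSMUSG00000037321; chr17:34324498-34334170, plus strand) held 51, 75 and 52 counts in *Adar1* E861A and 55, 55 and 39 in *Adar1* WT, which is 1.77, 2.07 and 1.94 CPM against 1.52, 1.44 and 1.09 CPM. The CPM values did not overlap, with a log2 fold change of 0.51 ± 0.19 that was not called with filterByExpr (adjusted p = 0.469, edgeR) or in the fit of all counted genes (0.50 ± 0.19, adjusted p = 0.297).

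*Tap2* (ENSMUSG00000024339; chr17:34340472-34353266, plus strand) held 81, 109 and 82 counts in *Adar1* E861A and 94, 121 and 93 in *Adar1* WT, or 2.95 ± 0.13 CPM against 2.79 ± 0.33 CPM (SD, n = 3). These ranges overlapped, and the log2 fold change was 0.08 ± 0.14 (adjusted p = 0.895, edgeR). The counts of *Tap1* were 0.630 to 0.688 times those of *Tap2* in *Adar1* E861A and 0.419 to 0.585 times in *Adar1* WT. Exons of *Gm15821* and *Gm20496* on the opposite strand covered 18.5% of the exonic length of *Tap2*, and those of *Psmb9* covered 3.87% of that of *Tap1*.

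*Tapbp* (ENSMUSG00000024308; chr17:34052844-34066235, plus strand) held 563, 703 and 560 counts in *Adar1* E861A and 743, 763 and 726 in *Adar1* WT, or 19.9 ± 0.82 CPM against 20.3 ± 0.25 CPM (SD, n = 3), with overlap. The log2 fold change was -0.03 ± 0.06 (adjusted p = 0.923, edgeR), the only estimate below 0 among the 10 genes. At the depth of this gene, 560 to 763 counts per library, the standard error was as small as that of *H2-D1*.

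**Figure D3:**
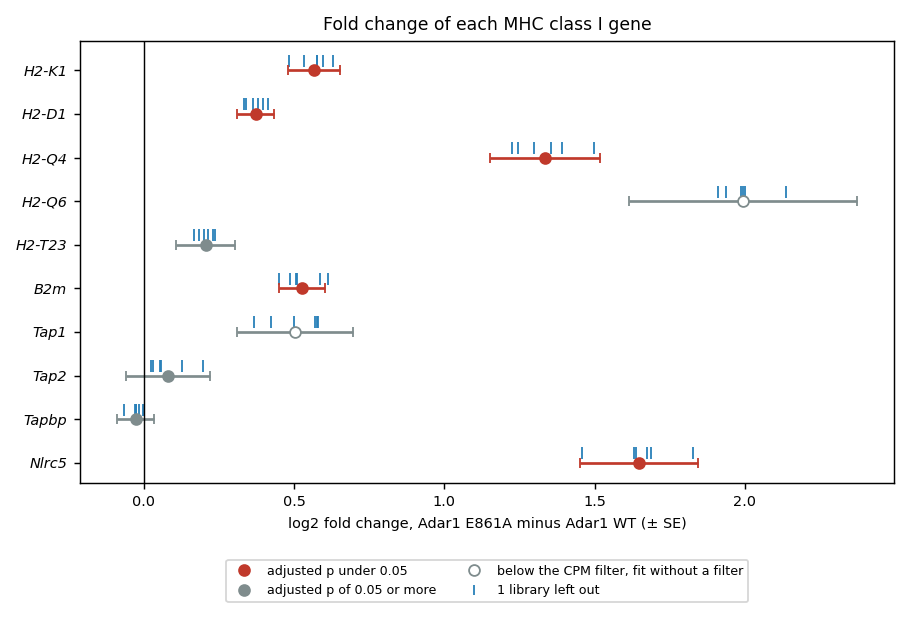
Log2 fold change of each gene, *Adar1* E861A minus *Adar1* WT, with its SE as the bar. Red points were called, grey points were tested and not called, open points were below the CPM filter and come from the fit of all counted genes, and blue ticks give the value with each library left out. *H2-Q6*, *Nlrc5* and *H2-Q4* lie between 1.33 and 1.99, and *Tap2* and *Tapbp* lie within 0.08 of 0. *Tap1* lies at 0.50 and *H2-T23* at 0.21.

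In CPM, 8 of the 10 genes had all 3 *Adar1* E861A libraries above all 3 *Adar1* WT libraries, against 7.25% of the 19366 genes kept by filterByExpr. The median log2 fold change was 0.51 over the 10 genes and 0.00 over all 19366. Together the 10 genes took 0.0123% to 0.0136% of all counts in the *Adar1* E861A libraries and 0.00977% to 0.0102% in the *Adar1* WT libraries. Deviations from genotype means correlated weakly between same-numbered libraries (r = 0.117 to 0.338), and no pairing was stated. A fit with the replicate number as a block called the same 5 of these genes, and 158 genes in all.

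The calls on *H2-K1*, *H2-D1* and *B2m* did not hold with each library left out. Without *Adar1* E861A replicate 3, the library with the most *S100a8* and *S100a9* counts and the lowest total, 2 of the 10 genes were called. These were *H2-Q4* and *Nlrc5*, which passed the CPM filter only through the *Adar1* E861A libraries. The log2 fold changes then were 0.58 ± 0.10 for *H2-K1* (adjusted p = 0.0565), 0.38 ± 0.07 for *H2-D1* (adjusted p = 0.0696) and 0.45 ± 0.08 for *B2m* (adjusted p = 0.0594, all edgeR), while the number of all genes called fell to 42. With all 6 libraries these estimates were 0.57, 0.37 and 0.53. Without *Adar1* WT replicate 3, *H2-D1* alone lost its call (0.36 ± 0.07, adjusted p = 0.0779). Without *Adar1* E861A replicate 1, the library with pituitary transcripts, the same count of 5 was called, with log2 fold changes of 0.63 for *H2-K1*, 0.40 for *H2-D1*, 1.35 for *H2-Q4*, 0.61 for *B2m* and 1.67 for *Nlrc5*.

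Scaled by exonic length as well as depth (FPKM), *B2m* was by far the most abundant, at 40.8 ± 2.39 in *Adar1* WT and 58.7 ± 6.07 in *Adar1* E861A (SD, n = 3). In *Adar1* WT it was followed by *H2-D1* (8.89 ± 0.56), *Tapbp* (6.16 ± 0.08), *H2-K1* (3.76 ± 0.21) and *H2-T23* (2.05 ± 0.08). *Tap2*, at 0.739 ± 0.09 FPKM, stood above *H2-Q4* (0.337 ± 0.07) and *Tap1* (0.247 ± 0.04), whose means ± SD overlapped, as did those of *Nlrc5* (0.097 ± 0.03) and *H2-Q6* (0.084 ± 0.02), the lowest. In *Adar1* E861A the order of the first 5 was the same, but *Tapbp* (6.04 ± 0.25) and *H2-K1* (5.54 ± 0.47) then overlapped. *H2-Q4* (0.846 ± 0.08) reached the level of *Tap2* (0.781 ± 0.03), and *H2-Q6* (0.342 ± 0.01) that of *Tap1* (0.351 ± 0.03), with *Nlrc5* lowest at 0.305 ± 0.01.

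Of 14 regulators of class I transcription reported here, all tested, edgeR called 0 (3 at an unadjusted p under 0.05, and 0 by each other test run), and their median log2 fold change was 0.08. The fit with the replicate block called 158 of all tested genes, among them *Irf9*, the DNA-binding part of an interferon-activated transcription complex (0.38 ± 0.08, adjusted p = 0.0466 with the block, and 0.37 ± 0.10, adjusted p = 0.238 without it, both edgeR). It held 349, 368 and 309 counts in *Adar1* E861A and 363, 288 and 300 in *Adar1* WT, and in CPM the groups did not overlap. *Creb1*, which binds the CRE-like element of class I promoters and was the most abundant of the list per length, was not called (0.12 ± 0.05, adjusted p = 0.519).

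The rest of the pathway held few calls, where the share called over all 13649 tested genes was 0.506%. In lists this short, that of the regulators included, 0 called is near that share and does not show the genes unchanged. Of 10 genes of peptide loading and trimming, all tested, edgeR called 0 (1 at an unadjusted p under 0.05, and 0 by each other test run), and the list's median log2 fold change was 0.01, against 0.00 over all tested genes. *Canx*, the chaperone calnexin, was the most abundant of them per length, with 460 ± 22.4 CPM in *Adar1* E861A and 471 ± 12.8 CPM in *Adar1* WT (SD, n = 3). Of 12 tested genes of cytosolic peptide supply, the proteasome and the peptidases that feed it, edgeR called 0 (1 at an unadjusted p under 0.05, and 0 by each other test run), with a median of -0.03. *Psmb7*, a constitutive proteasome subunit, had the highest level of these per length (log2 fold change -0.07 ± 0.06, adjusted p = 0.748). The interferon-inducible subunit *Psmb8* was below the filter, with 35, 41 and 35 counts against 33, 29 and 20 (0.69 ± 0.23 with filterByExpr, adjusted p = 0.378). *Psmb9* is listed at 0 in all 6 libraries under both of its identifiers. Whether its reads could be counted under either identifier was not tested, so the 0 does not show that the gene was silent.

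Of the other class I heavy chain genes, 21 of 24 were found by symbol and 3 were tested. EdgeR called 0 of these 3 (1 at an unadjusted p under 0.05, and 0 by each other test run), with *H2-T24* the most abundant per length (0.22 ± 0.09, adjusted p = 0.478). *H2-Q7*, which encodes Qa-2 and shares exonic sequence with *H2-Q6*, held 15, 17 and 15 counts in *Adar1* E861A and 5, 7 and 4 in *Adar1* WT. It was below the CPM filter and was called with filterByExpr (1.78 ± 0.37, adjusted p = 0.0312, edgeR). *H2-M1* and *H2-M11* had no count in any library. Of class I-like molecules encoded outside the MHC, edgeR called 0 of 3 tested (0 at an unadjusted p under 0.05, and 0 by each other test run), and *Fcgrt*, the neonatal Fc receptor, was the most abundant per length (0.06 ± 0.12, adjusted p = 0.907). None of the 10 receptors and NKG2D ligands found by symbol passed the filter.

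**Figure D4:**
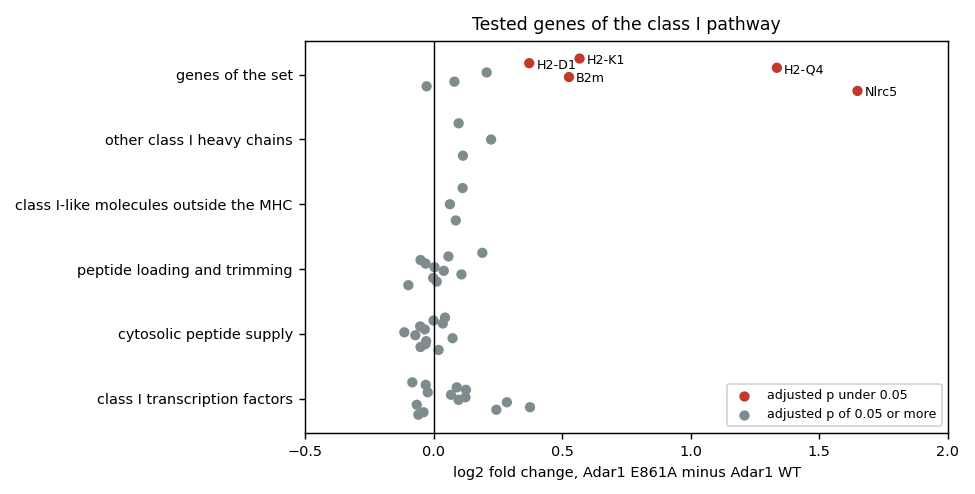
Log2 fold change (x axis, *Adar1* E861A minus *Adar1* WT) of each tested gene of the set and of the other class I pathway lists reported here, with a row for each list and a point for each gene. Called genes are red and named. Outside the set no point shown is red, and the peptide loading and peptide supply genes lie between -0.11 and 0.19.

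Of the 10 genes, 8 lie within a 2.12 Mb interval of chromosome 17 (chr17:34052844-36169800), which is the MHC. Between them 63 other genes were tested, leaving out the class I pathway lists, and 1 was called. *C4b*, a complement component gene, was at 15.9 ± 1.87 CPM in *Adar1* WT and 30.4 ± 2.89 CPM in *Adar1* E861A (SD, n = 3), and its log2 fold change was 0.93 ± 0.09 (adjusted p = 0.000142, edgeR). Its neighbour *C4a* is a near-identical copy, so reads that match both cannot be assigned to either. The median over the 63 genes was -0.06, with values from -0.40 to 0.93. Class II genes *H2-Aa* and *H2-Ab1* were below the CPM filter and were not called with filterByExpr (0.39 ± 0.21, adjusted p = 0.665, and 0.58 ± 0.27, adjusted p = 0.593, edgeR). Other class II genes of the interval had lower estimates in that fit and were not called either. They were *H2-Eb1* (0.06 ± 0.22), *H2-DMa* (0.10 ± 0.13) and *H2-DMb1* (0.16 ± 0.32). All these class II genes were named after their values were seen.

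**Figure D5:**
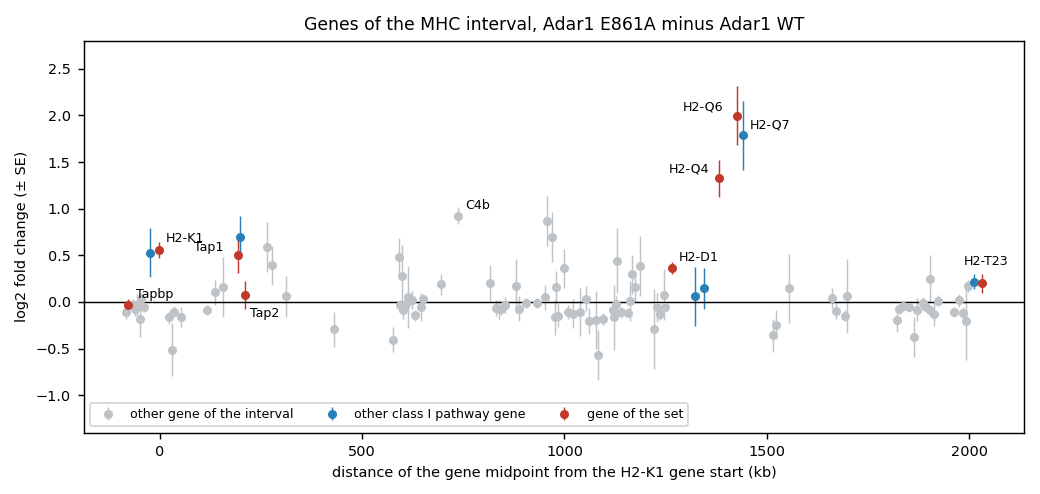
Log2 fold change ± SE (filterByExpr fit, y axis) of the genes of the MHC interval against the distance of their midpoint from the *H2-K1* gene start in kb (x axis). Genes of the set are red, other class I pathway genes blue and other genes grey. *H2-Q4*, *H2-Q6* and *H2-Q7* stand above 1, and *C4b* is the grey point at 0.92.

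*Vaultrc5*, *Cntn4*, *Irgm1* and *Col3a1* were among the 5 tested genes whose profile over the 6 libraries was nearest to the mean profile of the tested genes of the set. The measure was the root mean square difference of log2 CPM, each gene set to its *Adar1* WT mean, and came to 0.06, 0.07, 0.07 and 0.09 in that order. *Irgm1*, an interferon-inducible GTPase gene, went from 278, 265 and 247 counts in *Adar1* WT to 269, 344 and 286 in *Adar1* E861A, short of a call (0.45 ± 0.09, adjusted p = 0.0613, edgeR). *Cntn4*, a neuronal adhesion gene, and *Col3a1*, a fibrillar collagen gene, were called (0.42 ± 0.06, adjusted p = 0.00384, and 0.57 ± 0.11, adjusted p = 0.0316), as was the vault RNA *Vaultrc5* (0.50 ± 0.07, adjusted p = 0.00145). The likeness describes these 6 libraries alone, and the differences between genotypes enter it.

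Markers of the cells that could carry class I transcripts were measured beside these genes. Over all 13649 tested genes, edgeR's main fit called 69, the likelihood ratio test 139, the exact test 137, DESeq2 82 and limma-voom 68. With the replicate block, 158 were called. The share of all tested genes at an unadjusted p under 0.05 is not given here. Of 16 microglia markers, all tested, edgeR called 0 (2 at an unadjusted p under 0.05, and 0 by each other test run), and their summed level was 240 to 253 CPM in *Adar1* E861A, overlapping that in *Adar1* WT, which was 244 CPM or more. The 12 endothelial markers all had estimates below 0, with a median of -0.31; edgeR called 0 of them (8 at an unadjusted p under 0.05, 2 each by DESeq2, the likelihood ratio test and the exact test, and 0 by limma-voom), and with filterByExpr called *Flt1* lower (-0.38 ± 0.08, adjusted p = 0.0445). With the replicate block, *Slc2a1* was called lower (-0.33). Their sum was 193 to 239 CPM in *Adar1* E861A and 244 to 284 CPM in *Adar1* WT.

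Lymphocyte markers were sparse. The sum of the 16 was 9.84 to 11.8 CPM in *Adar1* E861A and 9.14 to 9.26 CPM in *Adar1* WT, and 0 of the 2 tested were called by edgeR (0 at an unadjusted p under 0.05, and 0 by each other test run). The 10 monocyte and neutrophil markers summed to 3.03 to 12.1 CPM against 2.21 to 4.51 CPM, with the highest sum in *Adar1* E861A replicate 3, and none passed the filter. The 6 perivascular macrophage markers summed to 16.2 to 18.7 CPM against 14.4 to 18.3 CPM (edgeR called 0 of 3 tested, with 1 at an unadjusted p under 0.05 and 0 by each other test run). No marker of these lists was at 0 in all libraries. The part of these cells in the class I differences was not tested.

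Markers of other cells of the brain and its surroundings are given beside these. The 8 choroid plexus markers summed to 234 to 343 CPM in *Adar1* E861A and 400 to 422 CPM in *Adar1* WT; edgeR called 0 (2 at an unadjusted p under 0.05, 1 each by the likelihood ratio and exact tests, and 0 by DESeq2 or limma-voom), and *Ttr* was called lower with the replicate block (-0.54). Astrocyte markers summed to 5584 to 5866 CPM against 4979 to 5237 CPM, with 0 of 8 called by edgeR (1 at an unadjusted p under 0.05, 1 each by DESeq2, the likelihood ratio test and the exact test, and 0 by limma-voom) and *Slc1a2* called higher with the block (0.20). Neuron markers, 0 of 10 called (2 at an unadjusted p under 0.05, and 0 by each other test run), summed to 5683 to 5925 CPM against 5954 to 6038 CPM. Oligodendrocyte markers, 0 of 8 called (0 at an unadjusted p under 0.05, and 0 by each other test run), overlapped at 4406 to 4657 against 4319 to 4685 CPM. Of the blood markers 5 of 8 were found, 0 of 3 tested were called (0 at an unadjusted p under 0.05, and 0 by each other test run), and they overlapped at 27.2 to 38.4 against 31.2 to 52.6 CPM. Pituitary markers reached 445 CPM in *Adar1* E861A replicate 1 and at most 3.20 CPM in *Adar1* WT. The part of these differences in the class I values was not tested.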

How the data were processed

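Total RNA from whole brain was depleted of ribosomal RNA and made into Kapa stranded libraries with spiked-in sequins, sequenced as 75-base pairs on a NextSeq500. Per the labels, the authors used Trimmomatic 0.36, STAR 2.5.2a, the mm9 build and edgeR; they deposited raw counts per gene from STAR's gene counting, with replicates not pooled. The strand column taken was not given in the sources used here, so overlapping genes on opposite strands are uncertain. The authors also deposited CPM values scaled over the genes they retained, which were not used, nor were the log2 fold change, average log2 CPM and false discovery rate (adjusted p-value) columns that the authors deposited. Coordinates and exon lengths came from GENCODE vM1, which held all 37310 identifiers, and 0 columns were left unassigned.

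The deposited counts were fitted with edgeR 4.0.16 under R 4.3.3 (TMM, quasi-likelihood test, Benjamini-Hochberg adjustment over all tested genes). A gene was tested where each library of 1 genotype or the other reached 2 CPM. CPM values are over column totals, and FPKM divides them by exonic length. Log2 profiles used an offset of 0.5. Standard errors are the log2 fold change over the square root of F. Genes under the filter were read from fits with filterByExpr and without a filter (29282 genes). The test was checked on simulated counts. Alternatives comprised the likelihood ratio and exact tests, DESeq2 1.42.0, limma-voom (limma 3.58.1), other scalings and filters, a block for the replicate number, and fits that left out each library in turn.

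The 10 genes and all lists were chosen with earlier results of these data known. Genes are named where they are 1 of the 10, a called gene of a pathway list or the MHC interval, the highest per length in a pathway list, or 1 of the 5 nearest profiles; others named were chosen after their values were seen. A gene that these rules cover is not reported here, and counts over the pathway lists leave it out. Replicate numbers in the titles were shared between genotypes. Deviations from genotype means correlated at r = 0.227, 0.338 and 0.117 between same-numbered libraries. Between libraries of different number, r ran from -0.261 to 0.0512. Deviations sum to 0 within each genotype, so these values depend on each other and do not settle whether libraries were paired. No pairing was stated. The main fit holds no block, and a fit with the replicate number as a block was run beside it. Library totals ranged from 26853488 to 38076753 counts.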

Additional observations from a re-analysis of the deposited data

How the results depend on the processing

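The count of the 10 genes called was 5 under each other test, scaling and filter tried except filterByExpr, its combination with the replicate block and the fit of all counted genes, which also hold *H2-Q6* and called 6 each. None of the 10 reversed direction in any alternative. With 1 library left out, 2 to 5 of the 10 were called, the 2 without *Adar1* E861A replicate 3; the count of all genes called was 42 to 113. The replicate block changed no call among the 10 genes, and it raised the genes called from 69 to 158 and the pathway genes called from 0 to 1. The genes called were 139 with the likelihood ratio test, 137 with the exact test, 110 with filterByExpr, 376 with no filter and 233 with filterByExpr and the block, the last chosen after seeing the data. Pathway genes called were 1 with filterByExpr, 2 with no filter and 2 with filterByExpr and the block, and 0 with any 1 library left out. MHC interval genes called were 3 with no filter. A filter of 2 CPM in any 3 libraries kept 13891 genes and called 69. The fit with no filter held 29282 genes, and in it the adjusted p of *B2m* was 6.34e-13, against 0.00357 in the main fit (both edgeR). The cause of these differences was not tested. At 6 to 26 counts per library for *H2-Q6* and 39 to 75 for *Tap1*, counting error limits both.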
